A study of Mus musculus with 16 samples.

Results

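The genes described here encode the core machinery that copies DNA in mammalian cells, measured in mouse primordial germ cells (PGCs), the embryonic cells that later give rise to eggs and sperm. A fixed list of 47 gene symbols was matched by name in both expression tables, and all 47 were found among the 26219 genes of each table. They were sorted by known role into 9 genes of origin recognition and licensing, 6 MCM helicase subunits, 6 genes of helicase activation, 9 of primase and the replicative polymerases, 8 of the sliding clamp, its loader and the joining of Okazaki fragments, 3 subunits of the single-strand binding protein RPA, 4 enzymes of nucleotide supply and 2 subunits of the chromatin assembly factor CAF-1. The study, titled for its interest in what the transcriptional repressor PRDM1 does in PGCs, holds 16 libraries of 3′ RNA sequencing in 2 tables. Of these, 8 came from C57BL/6 embryos at E11.5 (embryonic days are written E) with the genotype Prdm1(flox/flox); Rosa26(neo-EYFP/+), whose mothers received 3 mg of 4-hydroxytamoxifen per 25 g of body weight at 10.5 days post coitum. Of the floxed libraries, 4 were controls and 4 were labelled CKO (conditional knockout) and also carried the transgene Dppa3-MCMP(Tg/0), in which the germ cell promoter of Dppa3 drives an inducible Cre. Thus all 8 shared the floxed alleles, the reporter and the drug, and the Cre transgene set the groups apart. The protocol names sorting by EYFP and/or by SSEA-1 staining and does not tie either sort to a group. The other 8 libraries came from Dppa3(EGFP/+) PGCs on a mixed ICR and C57BL/6 background, called wild type (WT) in the labels, with 2 libraries each at E10.5, at E11.5, from E13.5 females and from E13.5 males. The labels do not say whether libraries of a group came from separate embryos or litters, so the p-values measure the spread between these libraries, which may be technical.

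Replication begins when the origin recognition complex (ORC), with CDC6 and CDT1, loads the MCM2-7 helicase onto DNA as an inactive ring, and geminin (Gmnn) blocks CDT1 so that origins are not loaded again. In S phase MCM10, CDC45 and the GINS complex turn the loaded ring into a running helicase, polymerase α with primase lays down primers, polymerase δ and polymerase ε extend them on the clamp PCNA, and FEN1 and DNA ligase 1 process and join the lagging strand. Many of these genes are known targets of the E2F transcription factors, which the retinoblastoma family restrains. Around E13.5 female mouse germ cells pass through a last S phase and enter meiosis, whereas male germ cells leave the mitotic cycle and arrest.

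Promoter sequence was examined first because E2F sites are the feature best known to be shared by replication genes. RefSeq promoters (GRCm38.p6) were at hand for 39 of the 47 members, and not for Gmnn, Mcm4, Gins1, Gins2, Gins4, Prim2, Pole and Rfc2. The 250 bases before each start were searched on both strands for the 8-letter words TTTCCCGC, TTTGGCGC, TTTGCCGC and TTTCGCGC, some of which overlap each other on opposite strands. At least 1 of these words was present for 9 of 39 members (23.1%), against 2.16% of 27025 genes with a promoter row and 4.27% of the 8411 such genes that were tested in the wild-type table. A second word, TTTGAA on either strand, the core of the cell cycle element called CHR, was present for 12.8% of the members and 12.3% of the tested genes. The matching members were Orc1, Orc3, Cdc6, Mcm5, Mcm6, Mcm7, Gins3, Pola1 and Rfc3. A match of letters is a description and not a binding site, and no match says only that these words are not in this window. The windows of 6 of them, chosen to cover licensing, helicase, polymerase and clamp loading, are shown 5′ to 3′ on the strand of the gene, in lower case with the matched words, merged where they overlap, in capitals. They span chr11:98907993-98908040 (plus strand, 158 to 111 bases before the start), chr4:108579407-108579453 (plus, 47 to 1 bases before the start) and chr8:75109336-75109387 (plus, 173 to 122 bases before the start). The others span chr1:128359725-128359835 (minus strand, 130 to 20 bases before the start), chr5:151651209-151651238 (minus, 30 to 1 bases before the start) and chrX:93632266-93632313 (minus, 158 to 111 bases before the start). The start is that of the promoter row searched. For Cdc6, Orc1 and Pola1 the RefSeq gene begins further upstream, so these windows lie within the gene bounds.
Cdc6: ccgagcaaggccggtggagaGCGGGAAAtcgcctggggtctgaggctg
Orc1: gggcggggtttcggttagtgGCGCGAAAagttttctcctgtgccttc
Mcm5: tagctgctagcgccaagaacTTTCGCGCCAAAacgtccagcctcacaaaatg
Mcm6: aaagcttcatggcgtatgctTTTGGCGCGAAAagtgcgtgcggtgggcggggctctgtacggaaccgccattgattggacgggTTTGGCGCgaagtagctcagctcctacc
Rfc3: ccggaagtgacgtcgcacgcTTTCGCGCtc
Pola1: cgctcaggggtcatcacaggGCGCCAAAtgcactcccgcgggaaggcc
Mcm5 and Mcm6 each hold a stretch in which words on opposite strands overlap, and Mcm6 holds another match nearer the start. The 6 members shown did not all give the same result in the test described below. Between E11.5 and E13.5 males Cdc6, Mcm5 and Rfc3 fell, while Orc1, Mcm6 and Pola1 did not pass. In females Mcm6 and Pola1 rose, and both results depended on how libraries were scaled, as given with values below. Differences between these genes were not tested.

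Values are in RPM, reads scaled to the gene-assigned total of each library and not divided by gene length, so levels are compared between libraries for a gene and not between genes. Library depth, read from the step between low values, was about 2798000 to 5032000 reads for the floxed libraries and 1485000 to 4783000 for the wild-type libraries. All 12 listed germ cell markers were above 0 in every library, with a summed level of 4171 to 4693 RPM in controls, 3916 to 4365 in CKO-labelled libraries and 5148 to 5185, 5582 to 5694, 5945 to 6106 and 9355 to 9749 at E10.5, E11.5 and in E13.5 females and males. Prdm1 itself was listed at 66.2, 50.7, 63.0 and 73.0 RPM in controls 1 to 4 and 79.9, 84.1, 76.6 and 89.4 in CKO-labelled libraries 1 to 4. A 3′ tag can lie outside a deleted part, so this checks neither the deletion nor the labels. Fold changes below are differences of log2(RPM + 1), with a standard error (SE) from limma. Genes count as called where the p-value, adjusted by Benjamini and Hochberg's method over all genes tested, is under 0.05. All 47 members passed the filter on low values in both tables. Of the 12 germ cell markers, 2 were called higher and 8 lower in E13.5 females against E11.5, beside 31.2% and 20.0% of all genes. In E13.5 males 3 were called higher and 5 lower, beside 22.3% and 15.9%. Their median change was -0.54 in females and -0.25 in males, so the higher E13.5 sums do not reflect most of these markers.

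Between E11.5 and E13.5 the replication genes did not move as a block: in females 14 members rose and 12 fell, in males 6 rose and 17 fell, and nothing was called for 21 and 24. Over all 10749 genes tested, 51.2% were called in females (31.2% higher and 20.0% lower) and 38.2% in males (22.3% higher and 15.9% lower), so a share of called members near these values is not particular to the list. The counts by role below stand beside the same shares. The median member changed by 0.01 in females and -0.22 in males, beside 0.13 and 0.11 for all genes. Directly compared, 17 members were higher in E13.5 females and 4 were higher in males, beside a background of 37.6% (21.2% higher and 16.4% lower), with a median of 0.23 for members and 0.05 for all genes. Earlier, between E10.5 and E11.5, only Pcna and Mcm4 were called, both lower, beside 4.28% of all genes (2.31% higher and 1.97% lower). The 2 E13.5 comparisons with E11.5 share the E11.5 libraries, and the comparison of the sexes shares theirs, so the counts are not independent of each other.

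The split in direction depended on how libraries were scaled. Median-ratio scaling moved the median of all genes by -0.112 and quantile normalization by -0.151 in the female comparison. Under these the female counts became 7 members higher and 17 lower, and 9 higher and 15 lower. In males the counts became 3 higher and 19 lower, and 4 higher and 17 lower. No called member was called in the opposite direction under either scaling. Over all genes the same scalings gave 2818 higher and 2618 lower, and 2731 higher and 2811 lower, against 3354 and 2148 as deposited in females. Between E10.5 and E11.5 this scaling by median ratios gave 212 higher and 281 lower over all genes, against 248 and 212. The male counts over all genes were 1984 and 2019, and 1989 and 1950, against 2392 and 1713. Of the called members, 11 of 26 in the female comparison, 10 of 23 in the male comparison and 9 of 21 between the sexes were called under all 18 alternatives.

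**Figure D1:**
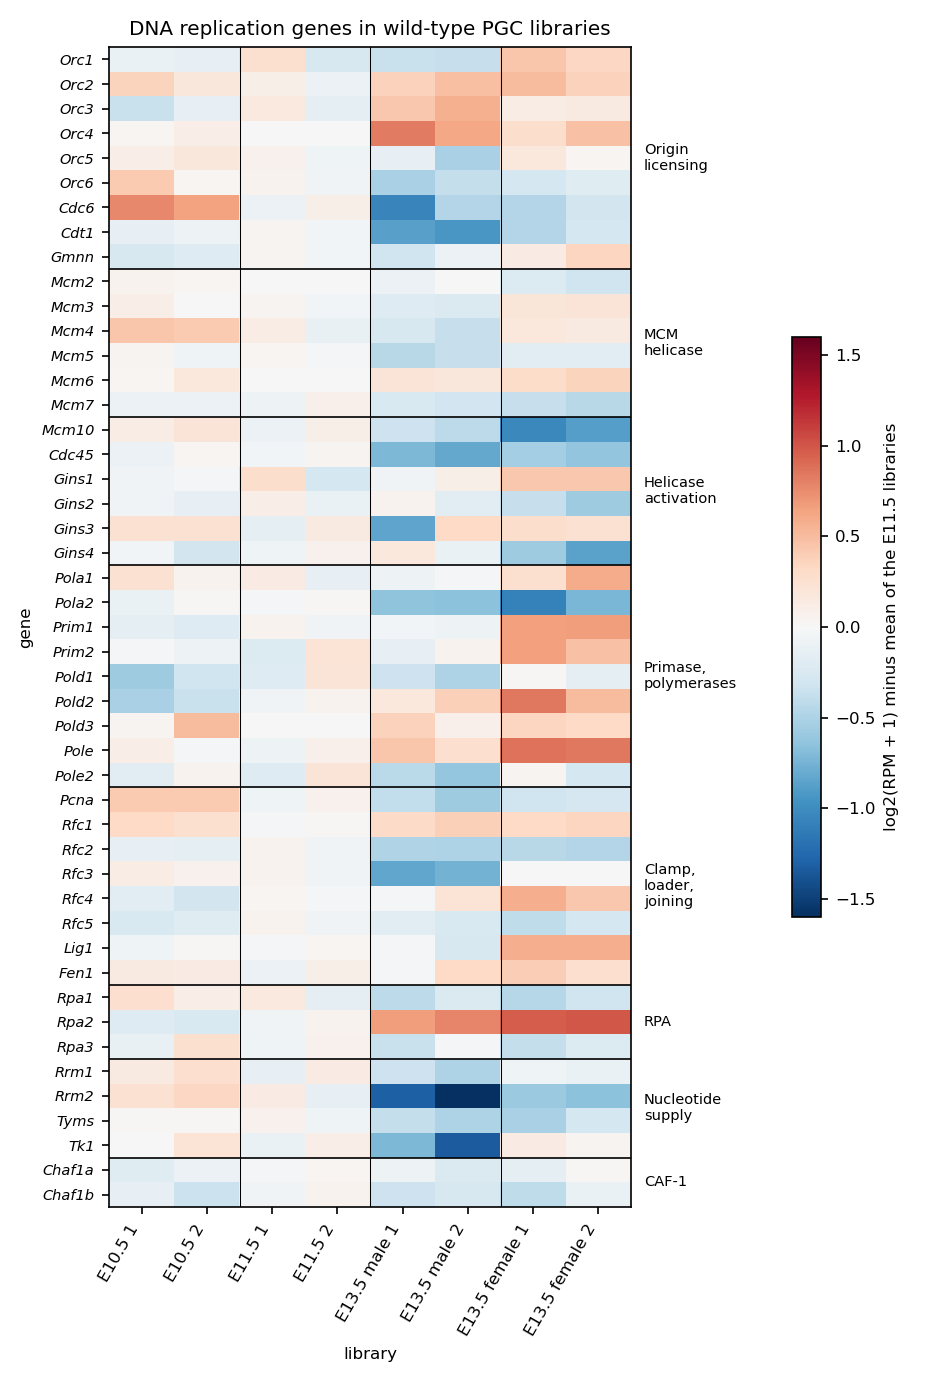
Heat map of the 47 replication genes (vertical axis, grouped by role) in the 8 wild-type libraries (horizontal axis), coloured by log2(RPM + 1) minus the mean of the E11.5 libraries. Rrm2, Tk1, Rfc3 and Cdt1 are lowest in both E13.5 male libraries, Mcm10 and Pola2 are lowest in both E13.5 female libraries, and Rpa2 is higher in all 4 E13.5 libraries than in the earlier 4.

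**Figure D2:**
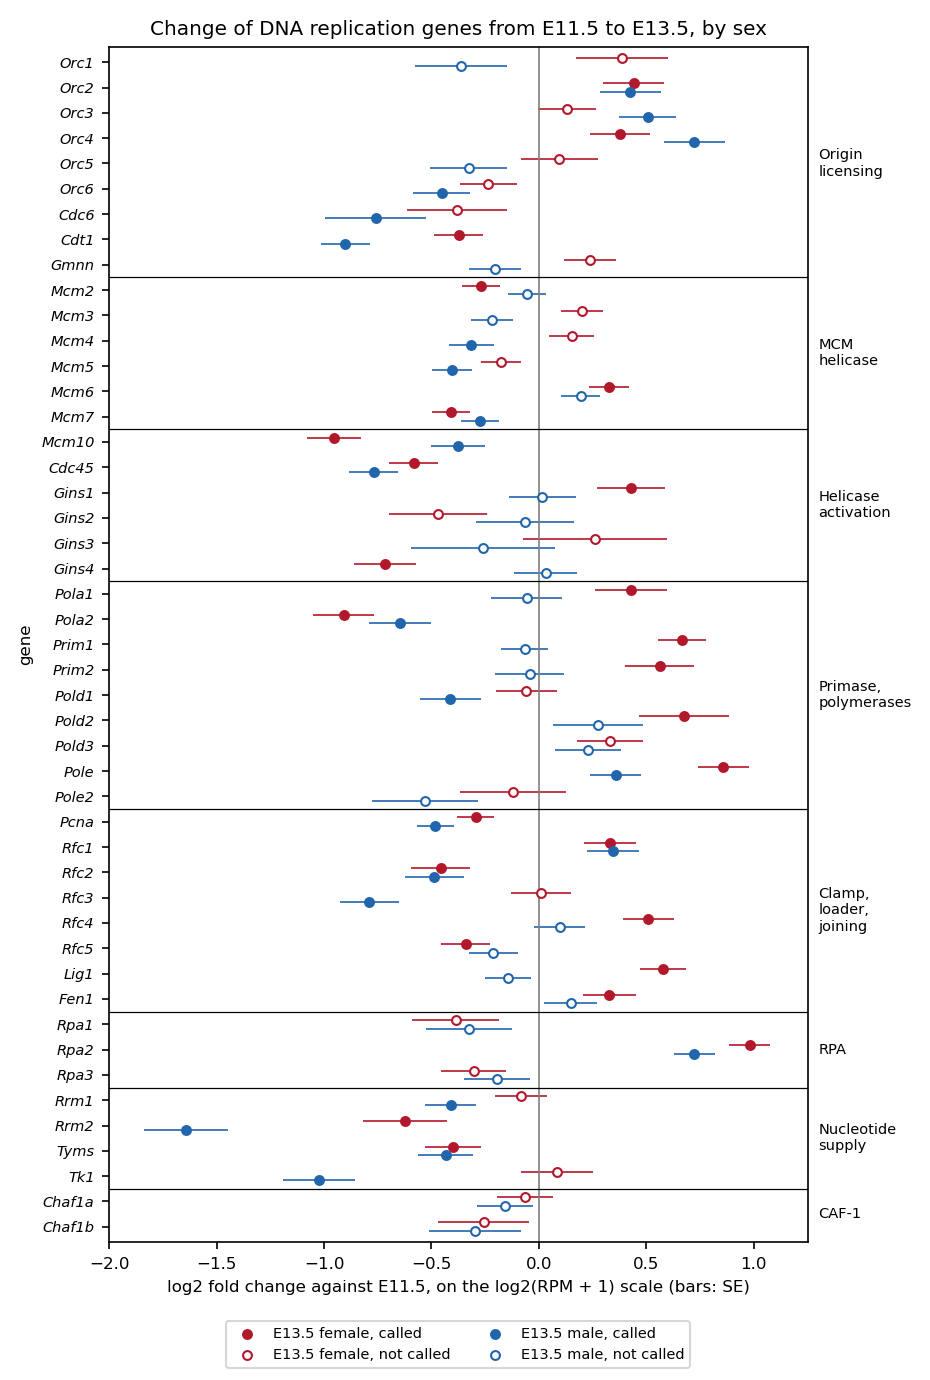
Log2 fold change of each replication gene from E11.5 to E13.5 (horizontal axis, with SE bars, n = 2 libraries per group) in females (red) and males (blue), with filled points for genes called at an adjusted p under 0.05. Filled points lie on both sides of 0 within most roles, and among the 4 nucleotide supply genes every male point is filled and below 0.

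Among the 9 licensing genes, the loading factor Cdt1 fell in both sexes at E13.5. The ORC subunit genes Orc2 and Orc4 were called higher in both as deposited, while the ORC subunit gene Orc6 was called lower in males. The Orc2 rises and the female Orc4 rise were lost under either other scaling. In females 2 of 9 rose and 1 fell, and in males 3 rose and 3 fell. The female counts turned to 0 higher and 2 lower with median-ratio scaling and 0 higher and 3 lower with quantile normalization, and the male counts were 2 higher and 3 lower with both. Cdt1 (chromosome 8, 122568015 to 122573130, plus strand) was listed at 203 and 210.3 RPM at E10.5, 229.7 and 214 at E11.5, 160.3 and 183 in E13.5 females and 121 and 116 in E13.5 males. All 4 E13.5 libraries lay below the 4 earlier ones, and the male libraries lay below the female ones. The change from E11.5 was -0.90 ± 0.11 (SE, adjusted p = 3.36e-07) in males and -0.37 ± 0.11 (SE, adjusted p = 0.00734) in females, where the call was lost without E13.5 female library 1. Females differed from males by 0.53 ± 0.11 (SE, adjusted p = 0.000497). Cdc6, which loads MCM together with Cdt1, was listed at 51.0 and 46.7 RPM at E10.5, 27.6 and 31.6 at E11.5, 21.1 and 23.8 in E13.5 females and 13.7 and 21.1 in E13.5 males. Its levels were highest in both E10.5 libraries. The E13.5 male and female libraries overlapped, and the difference between the sexes of 0.38 ± 0.23 (SE, adjusted p = 0.213) was not called. The fall of Cdc6 in males of -0.76 ± 0.23 (SE, adjusted p = 0.0113) was called, though not without E11.5 library 2 or E13.5 male library 1. The Cdc6 difference between E10.5 and E11.5 of -0.71 ± 0.23 (SE, adjusted p = 0.0798) had the smallest p of this role and was not called.

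Orc4, a core ORC subunit, was listed at 74.0 and 77.8 RPM at E10.5, 72.7 and 71.7 at E11.5, 87.8 and 101 in E13.5 females and 129 and 112 in E13.5 males. Both male libraries were the highest of the 8, and the change was 0.72 ± 0.14 (SE, adjusted p = 0.000153) in males and 0.38 ± 0.14 (SE, adjusted p = 0.0264) in females. The female call was lost under either scaling and without either E11.5 library or female library 2. The Orc4 difference between the sexes of -0.35 ± 0.14 (SE, adjusted p = 0.0496) was lost in 10 of 18 alternatives, among them leaving out any E10.5 or E13.5 library. Orc3, another core subunit, was listed at 87.6 and 103 RPM at E10.5, 126 and 100.5 at E11.5, 123 and 124 in E13.5 females and 153 and 168 in E13.5 males. Both male libraries lay above all others, with a change of 0.51 ± 0.13 (SE, adjusted p = 0.0036) in males and 0.13 ± 0.13 (SE, adjusted p = 0.431) in females. The difference between the sexes for Orc3 of -0.37 ± 0.13 (SE, adjusted p = 0.0276) was lost when any E13.5 library was left out. The male rise was lost without E11.5 library 2 or male library 2. Orc2 was listed at 89.4 and 79.1 RPM at E10.5, 74.1 and 65.5 at E11.5, 99.7 and 90.5 in E13.5 females and 90.2 and 97.5 in E13.5 males. Its E13.5 levels lay well above those at E11.5 and just above those at E10.5, with changes of 0.44 ± 0.14 (SE, adjusted p = 0.0109) in females and 0.42 ± 0.14 (SE, adjusted p = 0.0192) in males that were lost under either scaling. They were also lost without E11.5 library 2, and without female library 1 or male library 2.

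Orc1, the ORC subunit gene best known to vary through the cell cycle, was listed at 30.7 and 30.1 RPM at E10.5, 39.7 and 27.6 at E11.5, 45.4 and 41.9 in E13.5 females and 25.7 and 25.4 in E13.5 males. The female libraries were above the male ones by 0.75 ± 0.21 (SE, adjusted p = 0.00631), a call lost without E13.5 female library 1, while neither sex differed from E11.5 by the test. Geminin (Gmnn), the CDT1 inhibitor, was listed at 136 and 141 RPM at E10.5, 168 and 158 at E11.5, 178 and 207 in E13.5 females and 129.9 and 153 in E13.5 males. It too was higher in females than in males, by 0.44 ± 0.12 (SE, adjusted p = 0.00443), and not called against E11.5 in either sex. That call was lost without male library 1 or female library 2. Orc6, the smallest ORC subunit, fell by 0.45 ± 0.13 (SE, adjusted p = 0.00753) on the log2 scale in males, a call lost without male library 1, with a value of -0.23 ± 0.13 (SE, adjusted p = 0.14) in females. Orc5 was called in no comparison, with values from -0.33 in males to 0.42 between the sexes.

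The 6 MCM subunits form a ring with 1 copy of each, yet their transcripts did not change in step. In females Mcm6 rose and Mcm2 and Mcm7 fell. In males Mcm4, Mcm5 and Mcm7 fell and none rose, and between the sexes Mcm3 and Mcm4 were higher in females. Mcm7 (chromosome 5, 138164583 to 138172111, minus strand) was listed at 694 and 696 RPM at E10.5, 700.4 and 789 at E11.5, 574 and 545 in E13.5 females and 629 and 602 in E13.5 males. All 4 E13.5 libraries lay below all 4 earlier ones, with changes of -0.41 ± 0.09 (SE, adjusted p = 0.000302) in females and -0.27 ± 0.09 (SE, adjusted p = 0.0142) in males. The male call was lost without E11.5 library 2 or male library 2. Mcm6 was listed at 389.6 and 426 RPM at E10.5, 382 and 378 at E11.5, 466 and 487 in E13.5 females and 440.2 and 429.6 in E13.5 males. All E13.5 libraries were above all earlier ones. Its change of 0.33 ± 0.09 (SE, adjusted p = 0.00414) in females was lost with median-ratio scaling and without female library 2. The male value was 0.19 ± 0.09 (SE, adjusted p = 0.0943). The female MCM counts moved in opposite directions with scaling, to 0 higher and 3 lower by median ratios and 2 higher and 1 lower by quantiles.

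Mcm4 was listed at 351 and 345 RPM at E10.5, 281 and 237 at E11.5, 289.8 and 284 in E13.5 females and 216 and 199 in E13.5 males. The highest levels were at E10.5 and the lowest in males. Mcm4 fell between E10.5 and E11.5 by 0.43 on the log2 scale (-0.43 ± 0.10 (SE, adjusted p = 0.0148)). That call was lost with no filter, with no variance trend, with only the 2 groups in the fit, and without either E10.5 library or E11.5 library 2 (adjusted p up to 0.223). The male fall was -0.32 ± 0.10 (SE, adjusted p = 0.0181), lost without E11.5 library 1 or male library 2. For Mcm4 females were above males by 0.47 ± 0.10 (SE, adjusted p = 0.000765), a call lost in 1 of 18 alternatives. Mcm3 was listed at 334 and 309 RPM at E10.5, 319 and 300.1 at E11.5, 355 and 356 in E13.5 females and 269 and 263 in E13.5 males. Females were highest and males lowest of the 8 libraries, with 0.42 ± 0.10 (SE, adjusted p = 0.00111) between the sexes, a call lost in 1 of 18 alternatives. Neither sex was called against E11.5 for Mcm3. Mcm5 was listed at 448 and 417 RPM at E10.5, 444 and 429 at E11.5, 385 and 386 in E13.5 females and 321 and 339 in E13.5 males. Both male libraries were the lowest, with -0.40 ± 0.09 (SE, adjusted p = 0.000944) in males, lost only with no variance trend, and -0.18 ± 0.09 (SE, adjusted p = 0.109) in females. Mcm2 was listed at 561 and 554 RPM at E10.5, 539 and 541 at E11.5, 464 and 431 in E13.5 females and 504 and 535 in E13.5 males. It was lowest in both female libraries, with -0.27 ± 0.09 (SE, adjusted p = 0.0118) in females and -0.06 ± 0.09 (SE, adjusted p = 0.652) in males. The female call for Mcm2 was lost with quantile normalization and without female library 2.

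Of the genes that activate the loaded helicase, Mcm10 and Cdc45 fell in both sexes, and the 4 GINS genes divided. In females 1 of 6 genes of this role rose and 3 fell, and in males 2 fell. Both other scalings gave 0 higher and 4 lower in females. Mcm10 (chromosome 2, 4990724 to 5012791, minus strand) was listed at 163 and 174 RPM at E10.5, 141 and 160.0 at E11.5, 73.4 and 81.4 in E13.5 females and 119 and 113 in E13.5 males. Both female libraries lay lowest, the male ones next, and the 4 earlier libraries highest. Its change was -0.95 ± 0.13 (SE, adjusted p = 4.97e-07) in females and -0.38 ± 0.13 (SE, adjusted p = 0.019) in males, the latter lost without E11.5 library 2 or male library 2. Females differed from males by -0.58 ± 0.13 (SE, adjusted p = 0.000585). Cdc45 (chromosome 16, 18780447 to 18811972, minus strand), part of the running helicase, was listed at 196 and 213 RPM at E10.5, 201 and 216 at E11.5, 143 and 134 in E13.5 females and 126 and 118 in E13.5 males. The order of the sexes was the opposite of that for Mcm10, though for Cdc45 the difference between them of 0.19 ± 0.11 (SE, adjusted p = 0.211) was not called. The changes from E11.5 were -0.77 ± 0.11 (SE, adjusted p = 4.56e-06) in males and -0.58 ± 0.11 (SE, adjusted p = 0.000118) in females.

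The GINS complex holds 1 copy of each of 4 subunits. Gins4 (chromosome 8, 23226610 to 23237668, minus strand) was listed at 109.7 and 91.9 RPM at E10.5, 108 and 118 at E11.5, 75.9 and 61.9 in E13.5 females and 128 and 105 in E13.5 males. The female libraries were the lowest of the 8, with -0.72 ± 0.15 (SE, adjusted p = 0.00018) in females against 0.03 ± 0.15 (SE, adjusted p = 0.883) in males and a difference between the sexes of -0.75 ± 0.15 (SE, adjusted p = 0.000169). Gins1 was listed at 75.4 and 76.5 RPM at E10.5, 95.6 and 64.3 at E11.5, 106 and 106 in E13.5 females and 75.5 and 83.5 in E13.5 males. The E11.5 libraries lay far apart. It was called higher in females, by 0.43 ± 0.16 (SE, adjusted p = 0.0239), and higher in females than in males, by 0.41 ± 0.16 (SE, adjusted p = 0.0386). These Gins1 calls were lost in 8 and 10 of 18 alternatives. The first was lost under either other scaling and without E11.5 library 2 or either female library. The second was lost with median-ratio scaling and when any E10.5 or E13.5 library was left out. Gins2 and Gins3 were called in no comparison as deposited, with -0.47 ± 0.23 (SE, adjusted p = 0.0869) and 0.26 ± 0.34 (SE, adjusted p = 0.536) in females. The smallest p of this role between E10.5 and E11.5 was that of Mcm10, which was not called (-0.16 ± 0.13 (SE, adjusted p = 0.516)).

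The primase and polymerase genes rose more often in females than they fell, 5 of 9 against 1. Over all genes tested more rose than fell too, 31.2% against 20.0%. In males 1 rose and 2 fell. Their summed level was 766 to 827 RPM at E11.5, 1011 to 1029 in E13.5 females and 732 to 772 in males, a description with no test. Both other scalings gave 4 higher and 1 lower in females. The polymerase α complex, which makes the primers, showed opposite moves among its 4 subunits. Prim1 (chromosome 10, 128015215 to 128030030, plus strand), the catalytic primase subunit, was listed at 149 and 143 RPM at E10.5, 173 and 159 at E11.5, 263 and 265 in E13.5 females and 160.3 and 157 in E13.5 males. The female libraries stood above all others, by 0.67 ± 0.11 (SE, adjusted p = 1.37e-05) from E11.5 and 0.73 ± 0.11 (SE, adjusted p = 5.73e-06) from males. The male value was -0.07 ± 0.11 (SE, adjusted p = 0.67). Its partner Prim2 was listed at 65.0 and 62.7 RPM at E10.5, 56.6 and 77.4 at E11.5, 105 and 91.8 in E13.5 females and 60.1 and 68.7 in E13.5 males. Females were again highest, with 0.56 ± 0.16 (SE, adjusted p = 0.00463) from E11.5 and 0.61 ± 0.16 (SE, adjusted p = 0.00368) from males, calls lost without female library 1 and without E11.5 library 1 or male library 1. Pola2 (chromosome 19, 5940543 to 5964238, minus strand), the regulatory subunit of the same complex, was listed at 109 and 119 RPM at E10.5, 117 and 119 at E11.5, 55.0 and 70.4 in E13.5 females and 75.1 and 74.7 in E13.5 males. All 4 E13.5 libraries were below the earlier 4, with -0.91 ± 0.14 (SE, adjusted p = 6.93e-06) in females and -0.65 ± 0.14 (SE, adjusted p = 0.000688) in males. The catalytic subunit Pola1 was listed at 65.0 and 56.7 RPM at E10.5, 59.9 and 49.8 at E11.5, 65.6 and 83.1 in E13.5 females and 51.4 and 53.5 in E13.5 males. Its values were 0.43 ± 0.17 (SE, adjusted p = 0.0342) in females and 0.49 ± 0.17 (SE, adjusted p = 0.0228) between the sexes, both lost without female library 2. The first was also lost under either scaling and without E11.5 library 2, and the second without either male library.

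Pole (chromosome 5, 110286319 to 110337468, plus strand), the catalytic subunit of polymerase ε, was listed at 133 and 121 RPM at E10.5, 117 and 129.8 at E11.5, 226 and 221 in E13.5 females and 168 and 149 in E13.5 males. Females were highest and males next, with 0.86 ± 0.12 (SE, adjusted p = 1.07e-06) in females, 0.36 ± 0.12 (SE, adjusted p = 0.0181) in males and 0.50 ± 0.12 (SE, adjusted p = 0.00138) between the sexes. The male rise was lost with median-ratio scaling and without E11.5 library 1 or male library 1. Its partner Pole2 was called nowhere, with -0.12 ± 0.25 (SE, adjusted p = 0.711) in females and -0.53 ± 0.25 (SE, adjusted p = 0.0924) in males. Pold1, the catalytic subunit of polymerase δ, was listed at 90.7 and 108 RPM at E10.5, 117 and 156 at E11.5, 137 and 122 in E13.5 females and 107 and 95.4 in E13.5 males. It fell in males by 0.41 on the log2 scale (-0.41 ± 0.14 (SE, adjusted p = 0.0232)), a call lost without E11.5 library 2 or either male library. Between E10.5 and E11.5 Pold1 had the smallest p of this role and was not called (0.44 ± 0.14 (SE, adjusted p = 0.0713)). Pold2 was listed at 20.8 and 23.4 RPM at E10.5, 29.0 and 31.3 at E11.5, 55.0 and 43.0 in E13.5 females and 34.1 and 39.4 in E13.5 males. It rose in females (0.67 ± 0.21 (SE, adjusted p = 0.00846)), though not without female library 1. Pold3 was called in no comparison, its largest difference being 0.33 ± 0.15 (SE, adjusted p = 0.0752).

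Among the clamp genes, Pcna fell at both steps, and the loader subunits went in different directions. In females 4 of 8 genes rose and 3 fell, and in males 1 rose and 3 fell. Median-ratio scaling gave 2 higher and 3 lower in females, and 0 higher and 4 lower in males. Quantile normalization gave 2 and 2 in females, and 0 and 3 in males. Pcna (chromosome 2, 132249286 to 132253180, minus strand), the sliding clamp, was listed at 1233 and 1239 RPM at E10.5, 879.5 and 974 at E11.5, 741 and 769 in E13.5 females and 704 and 622 in E13.5 males. The E10.5 libraries stood above all others, and the E13.5 libraries were below those at E11.5. The change between E10.5 and E11.5 was -0.42 ± 0.09 (SE, adjusted p = 0.00407). It was then -0.29 ± 0.09 (SE, adjusted p = 0.00555) in females and -0.48 ± 0.09 (SE, adjusted p = 5.59e-05) in males. The first was lost under the same settings as for Mcm4 other than leaving out E11.5 library 2 (adjusted p up to 0.223). The female fall was lost with quantile normalization and without E11.5 library 2 or female library 1. The named pseudogenes Pcna-ps1 and Pcna-ps2 could share reads with Pcna.

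Rfc3 (chromosome 5, 151642817 to 151651208, minus strand), a loader subunit, was listed at 103 and 99.2 RPM at E10.5, 98.3 and 91.7 at E11.5, 95.7 and 95.4 in E13.5 females and 53.1 and 56.0 in E13.5 males. It was low only in the male libraries, by -0.79 ± 0.14 (SE, adjusted p = 4.49e-05) from E11.5, and females were above males by 0.80 ± 0.14 (SE, adjusted p = 3.96e-05). The change in females was 0.01 ± 0.14 (SE, adjusted p = 0.963). Rfc4 was listed at 139 and 127 RPM at E10.5, 159.6 and 154 at E11.5, 236 and 212 in E13.5 females and 153 and 183 in E13.5 males. Females were highest, with 0.51 ± 0.12 (SE, adjusted p = 0.00077) from E11.5 and 0.41 ± 0.12 (SE, adjusted p = 0.00692) from males, the latter lost without male library 1 or female library 1. Rfc2 was listed at 96.6 and 94.8 RPM at E10.5, 110.4 and 101 at E11.5, 77.4 and 76.2 in E13.5 females and 75.8 and 74.7 in E13.5 males. All 4 E13.5 libraries lay below the others, with -0.46 ± 0.14 (SE, adjusted p = 0.00631) in females and -0.49 ± 0.14 (SE, adjusted p = 0.00559) in males. Rfc1, the large subunit, was called higher in both sexes (0.33 ± 0.12 (SE, adjusted p = 0.0226) and 0.34 ± 0.12 (SE, adjusted p = 0.024)), and both calls were lost under either scaling and without E11.5 library 1. The female call was also lost without either female library and the male call without male library 2. Rfc5 was called lower in females (-0.34 ± 0.11 (SE, adjusted p = 0.0145)), a call lost without E11.5 library 1 or female library 1, with -0.21 ± 0.11 (SE, adjusted p = 0.147) in males. Thus the 5 loader subunits, which work as a single complex, gave values from -0.46 to 0.51 in females and from -0.79 to 0.34 in males.

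Lig1 (chromosome 7, 13277175 to 13311426, plus strand), the ligase that joins Okazaki fragments, was listed at 206 and 219 RPM at E10.5, 211 and 222 at E11.5, 324 and 324 in E13.5 females and 211 and 182 in E13.5 males. Both female libraries stood far above the other 6, with 0.58 ± 0.11 (SE, adjusted p = 5.51e-05) from E11.5, -0.14 ± 0.11 (SE, adjusted p = 0.305) in males and 0.72 ± 0.11 (SE, adjusted p = 4.3e-06) between the sexes. Fen1, the flap nuclease that trims the fragments before joining, was listed at 159 and 157 RPM at E10.5, 134 and 154 at E11.5, 189 and 173 in E13.5 females and 142 and 179 in E13.5 males. Its female rise of 0.33 ± 0.12 (SE, adjusted p = 0.0284) was lost under either scaling and without E11.5 library 1 or either female library.

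Rpa2 (chromosome 4, 132768360 to 132778746, plus strand), the middle subunit of the single-strand DNA binding trimer, showed the smallest p of all members in females. It was listed at 229 and 222 RPM at E10.5, 254 and 274 at E11.5, 518 and 526 in E13.5 females and 420.5 and 453 in E13.5 males. All 4 E13.5 libraries exceeded the earlier 4 without overlap, females being highest, with 0.98 ± 0.10 (SE, adjusted p = 2.55e-09) in females and 0.72 ± 0.10 (SE, adjusted p = 7.52e-07) in males. The Rpa2 difference between the sexes of 0.26 ± 0.10 (SE, adjusted p = 0.0334) was lost with median-ratio scaling and without male library 1 or either female library. Rpa1 and Rpa3, the other subunits of the trimer, were not called in either sex as deposited, with -0.39 ± 0.20 (SE, adjusted p = 0.108) and -0.30 ± 0.15 (SE, adjusted p = 0.0987) in females and -0.33 ± 0.20 (SE, adjusted p = 0.208) and -0.20 ± 0.15 (SE, adjusted p = 0.333) in males. With either other scaling both were called lower in females.

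All 4 nucleotide supply genes fell in males, and 2 of them, Rrm2 and Tyms, fell in females. The summed level was 453 to 473 RPM at E11.5, 398 to 403 in females and 267 to 319 in males, again with no test. Rrm2 (chromosome 12, 24708254 to 24714146, plus strand), the S phase subunit of ribonucleotide reductase, was listed at 81.3 and 86.1 RPM at E10.5, 74.8 and 62.3 at E11.5, 44.9 and 43.0 in E13.5 females and 27.1 and 16.6 in E13.5 males. Males were lowest, females next, and the earlier libraries highest. Its male change of -1.64 ± 0.20 (SE, adjusted p = 1.38e-07) was the largest fall of any member in any of the 5 comparisons. The values were -0.62 ± 0.20 (SE, adjusted p = 0.00925) in females and 1.02 ± 0.20 (SE, adjusted p = 0.000144) between the sexes. The female call was lost without E11.5 library 1 or female library 2. Tk1 (chromosome 11, 117815519 to 117826087, minus strand), thymidine kinase 1, which salvages thymidine, was listed at 89.4 and 103 RPM at E10.5, 82.8 and 95.4 at E11.5, 97.2 and 91.6 in E13.5 females and 53.4 and 34.9 in E13.5 males. Only the male libraries were low, and they differed from each other. Its values were -1.02 ± 0.17 (SE, adjusted p = 1.75e-05) in males, 0.08 ± 0.17 (SE, adjusted p = 0.695) in females and 1.11 ± 0.17 (SE, adjusted p = 5.94e-06) between the sexes, the largest rise of females over males among the members.

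Rrm1, the large ribonucleotide reductase subunit, was listed at 188 and 205 RPM at E10.5, 154 and 186 at E11.5, 162 and 158 in E13.5 females and 135 and 120.1 in E13.5 males. It was lowest in males, with -0.41 ± 0.12 (SE, adjusted p = 0.00797), against -0.09 ± 0.12 (SE, adjusted p = 0.578) in females. The difference between the sexes of 0.33 ± 0.12 (SE, adjusted p = 0.0335) was lost with median-ratio scaling and without male library 2 or either female library. Between E10.5 and E11.5 neither Rrm1 (-0.21 ± 0.12 (SE, adjusted p = 0.362)) nor Rpa2 (0.22 ± 0.10 (SE, adjusted p = 0.184)), the members with the smallest p of their roles, was called. The male Rrm1 fall was lost without E11.5 library 2 or male library 2. Tyms, thymidylate synthase, was listed at 137 and 136 RPM at E10.5, 141 and 129 at E11.5, 93.5 and 111 in E13.5 females and 103 and 95.8 in E13.5 males. The values were -0.40 ± 0.13 (SE, adjusted p = 0.011) in females and -0.43 ± 0.13 (SE, adjusted p = 0.00854) in males. These calls were lost without E11.5 library 1 and without female library 1 or male library 2. A named pseudogene, Tyms-ps, could share reads with it. The CAF-1 subunit genes Chaf1a and Chaf1b, which place histones on new DNA, were called in no comparison. Chaf1a was listed at 98.9 and 105 RPM at E10.5, 110.4 and 115 at E11.5, 102 and 114 in E13.5 females and 106 and 96.1 in E13.5 males. The female libraries overlapped those at E11.5, while both male and both E10.5 libraries lay below them, with -0.16 ± 0.13 (SE, adjusted p = 0.361) in males. Chaf1b was listed at 32.5 and 27.9 RPM at E10.5, 34.3 and 37.0 at E11.5, 26.6 and 33.2 in E13.5 females and 28.1 and 29.6 in E13.5 males. Both E11.5 libraries lay above the other 6, and its differences were -0.26 ± 0.21 (SE, adjusted p = 0.324) in females, -0.30 ± 0.21 (SE, adjusted p = 0.281) in males and 0.24 ± 0.21 (SE, adjusted p = 0.585) between E10.5 and E11.5.

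**Figure D3:**
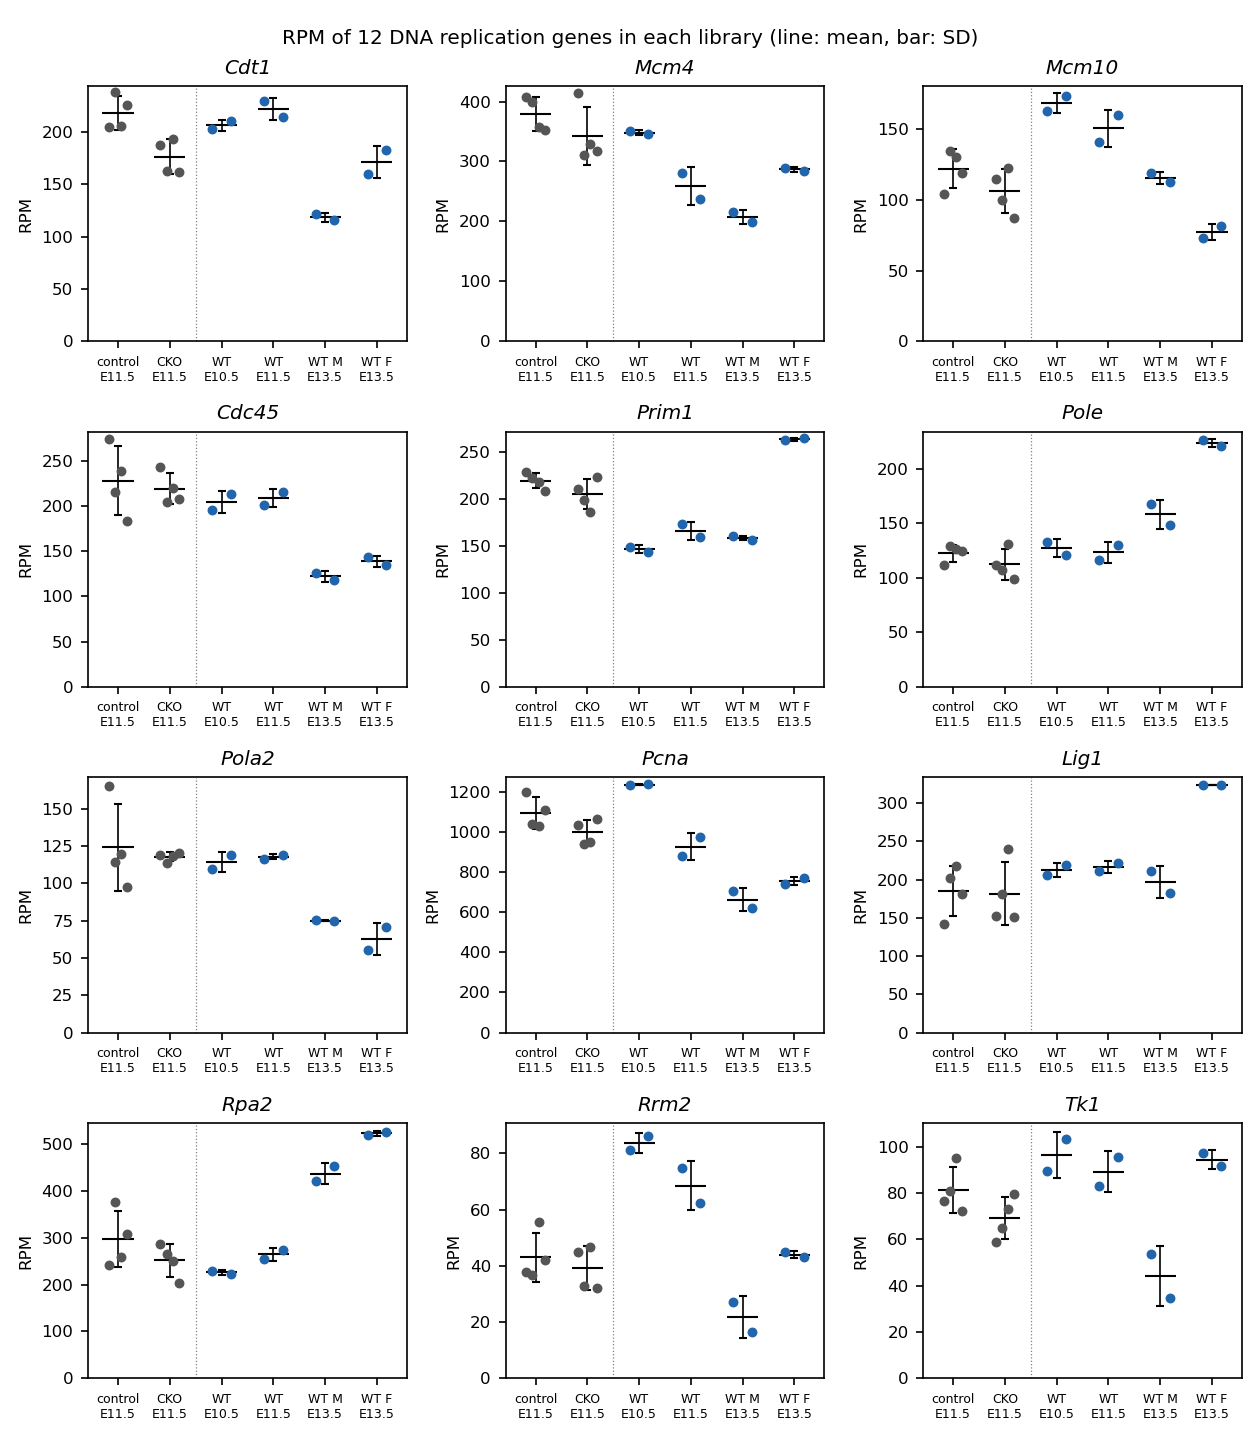
RPM of 12 replication genes in each library (points), by group (horizontal axis), with the group mean (line) and SD (bar), n = 4 for the floxed groups and n = 2 for the wild-type groups, the 2 tables being separated by a dotted line. Cdt1, Rrm2 and Tk1 are lowest in E13.5 males, Prim1, Pole, Lig1 and Rpa2 highest in E13.5 females, and the control and CKO-labelled points overlap in every panel other than Cdt1.

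The floxed libraries ask what differs a day after the drug in cells with the Cre transgene. No member was called in either direction, beside 2.43% of the 9384 genes tested (1.93% higher and 0.501% lower). At an unadjusted p under 0.05, 0 members were higher and 1 was lower, beside 6.32% and 5.67% of all genes tested, and a limma voom fit to reads worked out from the value steps also called 0. Of the 47 log2 differences 34 were negative and 13 positive, from -0.31 to 0.22, with a median of -0.08 beside -0.01 over all genes. Over all genes tested 46.77% of the differences were positive. Every CKO-labelled library lay below every control for 2 members, Cdt1 and Orc4, and above for 0, beside 3.86% and 4.34% of all genes. The summed level of the members was 8719 to 9137 RPM in controls and 8017 to 8694 in CKO-labelled libraries, which did not overlap, a description with no test.

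Cdt1, the member with the smallest p, was listed at 205, 238, 206 and 226 RPM in controls 1 to 4 and 187, 163, 194 and 162 in CKO-labelled libraries 1 to 4. The groups did not overlap, but the difference of -0.31 ± 0.10 (SE, adjusted p = 0.153) was not called, and its adjusted p was 0.13 to 0.385 over the 18 alternatives. Orc4 was listed at 133, 107, 96.5 and 97.3 RPM in controls 1 to 4 and 92.4, 89.0, 89.3 and 91.9 in CKO-labelled libraries 1 to 4, where control library 1 was far above the rest, with a difference of -0.25 ± 0.12 (SE, adjusted p = 0.424). Mcm5 had the smallest p of the MCM genes. It was listed at 483, 458, 422 and 420.2 RPM in controls 1 to 4 and 412, 359, 422 and 380.3 in CKO-labelled libraries 1 to 4, a difference of -0.18 ± 0.09 (SE, adjusted p = 0.444) in which the highest CKO-labelled library reached the lower controls. All 6 MCM differences were negative and uncalled, from -0.18 for Mcm5 to -0.01 for Mcm7, and Mcm7 turned positive under both other scalings.

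In the other roles the smallest p belonged to Mcm10, Pole, Pcna, Rpa2, Tk1 and Chaf1b. Mcm10 was listed at 104, 135, 131 and 119 RPM in controls 1 to 4 and 115, 100.2, 123 and 87.6 in CKO-labelled libraries 1 to 4, and the groups overlapped (-0.21 ± 0.13 (SE, adjusted p = 0.583)). Pole was listed at 111, 129, 126 and 124 RPM in controls 1 to 4 and 112, 107, 131 and 98.7 in CKO-labelled libraries 1 to 4, again with overlap (-0.13 ± 0.11 (SE, adjusted p = 0.715)). Pcna was listed at 1197, 1039, 1031 and 1111 RPM in controls 1 to 4 and 1036, 939.7, 952 and 1067 in CKO-labelled libraries 1 to 4, where the upper CKO-labelled levels exceeded the lower controls (-0.13 ± 0.08 (SE, adjusted p = 0.597)). The Rpa2 libraries spread widely within both groups, at 242, 376, 259.6 and 307 RPM in controls 1 to 4 and 287, 265, 250.3 and 204 in CKO-labelled libraries 1 to 4 (-0.22 ± 0.14 (SE, adjusted p = 0.594)). Tk1 was listed at 76.5, 80.8, 95.01 and 72.1 RPM in controls 1 to 4 and 59.0, 64.8, 72.9 and 79.7 in CKO-labelled libraries 1 to 4, lower in 3 of 4 CKO-labelled libraries than in 3 of 4 controls (-0.23 ± 0.13 (SE, adjusted p = 0.529)). The only positive difference among these was that of Chaf1b, listed at 25.9, 34.2, 32.6 and 34.4 RPM in controls 1 to 4 and 32.5, 33.8, 39.3 and 43.3 in CKO-labelled libraries 1 to 4 (0.22 ± 0.15 (SE, adjusted p = 0.628)).

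Some members differed more between libraries of the same group than between groups. Rpa1 (chromosome 11, 75300259 to 75348454, minus strand), the large RPA subunit, was listed at 2.65, 12.5, 12.04 and 6.36 RPM in controls 1 to 4 and 5.34, 8.54, 15.2 and 2.50 in CKO-labelled libraries 1 to 4. Libraries 1 and 4 were low and libraries 2 and 3 high in both groups, and all 8 were below the 28.4 to 47.4 RPM of the wild-type table, which was normalized separately. The lowest level rested on 7 reads and the highest on 53 reads, with exact 95% Poisson intervals of 1.01 to 5.16 and 11.4 to 19.9 RPM that cover counting error only. Pold1 had the same pattern, at 54.4, 84.9, 95.01 and 59.8 RPM in controls 1 to 4 and 58.5, 77.5, 94.1 and 50.0 in CKO-labelled libraries 1 to 4. Lig1 was listed at 142, 202, 218 and 181 RPM in controls 1 to 4 and 153, 182, 239.9 and 152 in CKO-labelled libraries 1 to 4, and Rrm1 at 119, 187, 209 and 166 RPM in controls 1 to 4 and 163, 202, 209.5 and 139.8 in CKO-labelled libraries 1 to 4, library 1 or 4 being lowest and library 3 highest within each group for both genes. The labels name nothing that libraries of the same number share.

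**Figure D4:**
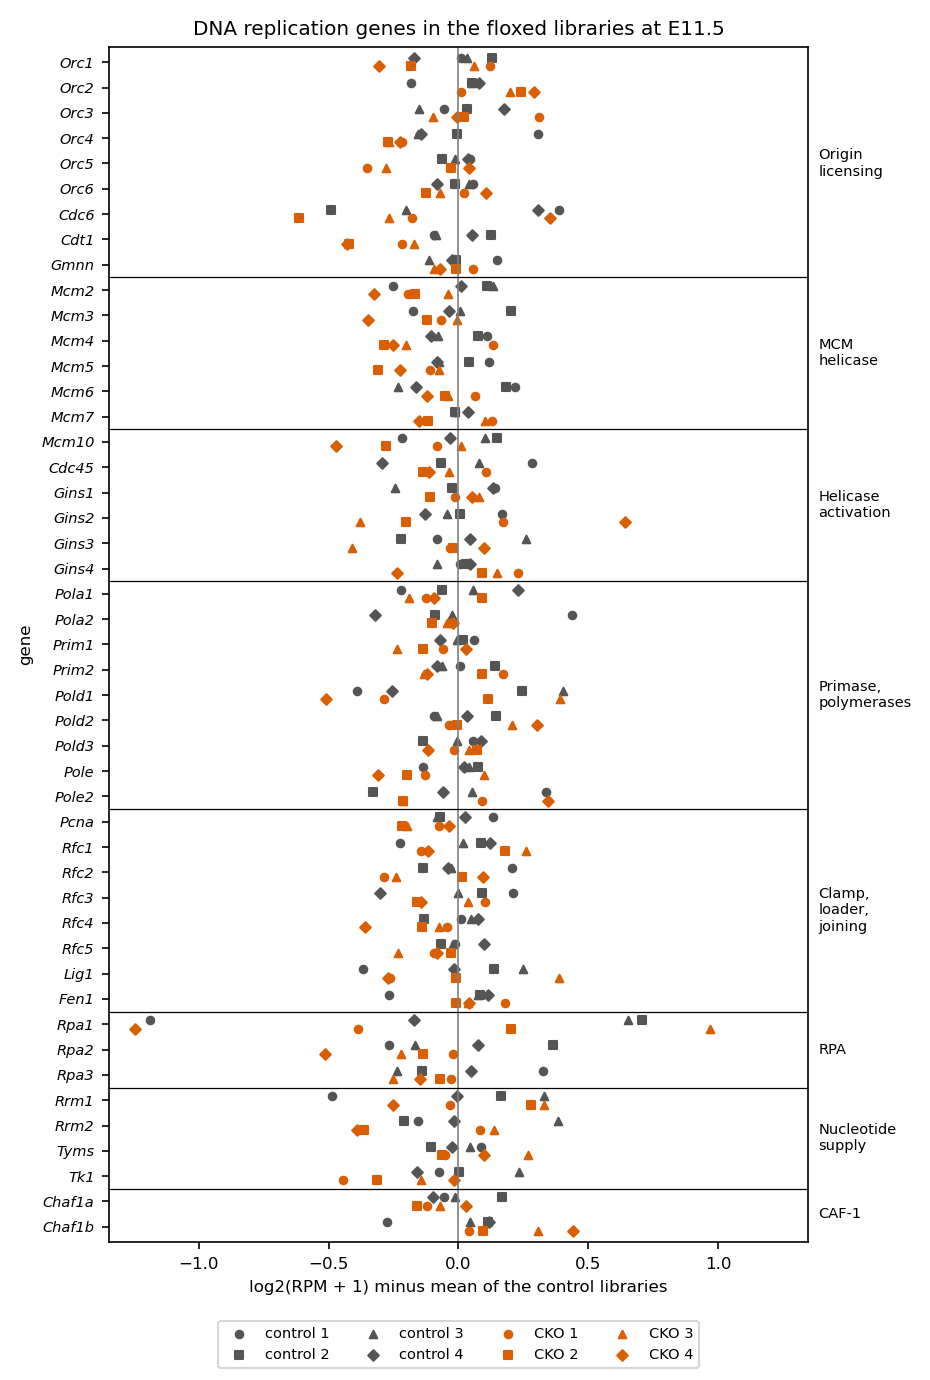
Log2(RPM + 1) of each replication gene in the 8 floxed libraries at E11.5, minus the mean of the 4 controls (horizontal axis), with controls in grey, CKO-labelled libraries in orange and a marker shape per replicate number. Points of the groups overlap for all members other than Cdt1 and Orc4, and Rpa1 shows the widest spread within both groups.

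Other genes of the pathway, from lists that overlap none of the 47 members, also divided in direction at E13.5. Over all genes tested 31.2% were called higher and 20.0% lower in females, and 22.3% and 15.9% in males. Counts of a list near these shares are not particular to it. In the floxed libraries the shares were 1.93% and 0.501%. Among kinases that fire origins and their partners, 4 of 10 tested genes rose and 1 fell in females, and 3 rose and 3 fell in males. The kinase gene Cdc7 rose in both sexes, from 63.3 and 59.8 RPM at E11.5, 95.1 and 96.8 in E13.5 females and 99.5 and 95.8 in E13.5 males, and Cdk2 also did, from 18.9 and 17.9 RPM at E11.5, 42.6 and 35.4 in E13.5 females and 44.1 and 48.6 in E13.5 males, while cyclin E1 (Ccne1) fell in both, from 66.7 and 84.6 RPM at E11.5, 37.2 and 48.8 in E13.5 females and 33.4 and 33.8 in E13.5 males. Cdk2 was the only gene of this list called in the floxed libraries, at 10.6, 17.9, 10.1 and 13.7 RPM in controls 1 to 4 and 29.7, 39.7, 36.2 and 27.9 in CKO-labelled libraries 1 to 4, a rise of 1.31 ± 0.20 (SE, adjusted p = 0.00209) with no overlap. Among further fork proteins, 7 of 19 tested genes rose and 3 fell in females, and 4 rose and 3 fell in males. The leading rises in females were those of Mcmbp, an MCM-binding protein, from 101 and 106 RPM at E11.5, 196 and 212 in E13.5 females and 192 and 154 in E13.5 males, Wdhd1, which links the helicase to polymerase α, from 67.3 and 55.5 RPM at E11.5, 121 and 136 in E13.5 females and 88.8 and 101 in E13.5 males, and Tipin, of the fork protection complex, from 145 and 152 RPM at E11.5, 224 and 239 in E13.5 females and 149 and 155 in E13.5 males.

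Among further deoxynucleotide enzymes, 2 of 13 tested genes rose and 7 fell in females, and 2 rose and 3 fell in males. Samhd1, which degrades deoxynucleotides, fell in females, from 141 and 116 RPM at E11.5, 44.1 and 45.2 in E13.5 females and 127 and 128 in E13.5 males, by -1.50 ± 0.14 (SE, adjusted p = 7.21e-10). Dut, the dUTPase, fell in both, from 769 and 778 RPM at E11.5, 628 and 612 in E13.5 females and 507 and 464 in E13.5 males. Among histone chaperones and replication-coupled chromatin proteins, 3 of 8 tested genes rose and 2 fell in females, and 2 rose and 1 fell in males. The chromatin remodeller gene Hells rose in both, from 126 and 108 RPM at E11.5, 388 and 419 in E13.5 females and 234 and 270.1 in E13.5 males, by 1.78 ± 0.11 (SE, adjusted p = 6.52e-13) and 1.10 ± 0.11 (SE, adjusted p = 1.08e-08). Uhrf1, which recruits the maintenance DNA methyltransferase, rose in both sexes and was the only other listed pathway gene called in the floxed libraries, at 3.24, 5.77, 3.72 and 5.18 RPM in controls 1 to 4 and 8.82, 11.9, 10.6 and 21.4 in CKO-labelled libraries 1 to 4 (1.33 ± 0.28 (SE, adjusted p = 0.0215)). Controls 1 and 3 were below 5 RPM, so Uhrf1 passed the filter of 5 RPM in 4 libraries only through its CKO-labelled libraries. Its highest level was in CKO-labelled library 4, which also had the highest gonadal somatic sum. Among E2F and pocket protein genes, 4 of 12 tested genes rose and 3 fell in females, and 1 rose and 2 fell in males. The atypical repressors E2f7 and E2f8 fell in both sexes and Rb1 rose in both, from 27.6 and 21.9 RPM at E11.5, 83.0 and 73.2 in E13.5 females and 61.1 and 48.2 in E13.5 males.

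Among 20 G2 and M phase genes, 9 of 20 tested genes rose and 6 fell in females, and 7 rose and 2 fell in males, and 3 were higher and 10 lower in females than in males. Between the sexes 21.2% of all genes tested were called higher in females and 16.4% lower. Ccnb2 and Cenpf rose and Aurkb fell in both sexes. Among cyclin-dependent kinase inhibitors, 2 of 5 tested genes rose and 0 fell in females, and 2 rose and 0 fell in males. Cdkn1c rose in both, from 8.76 and 13.1 RPM at E11.5, 54.1 and 68.0 in E13.5 females and 37.7 and 39.1 in E13.5 males, and Cdkn2d in females, from 22.9 and 23.3 RPM at E11.5, 63.1 and 83.1 in E13.5 females and 17.7 and 30.3 in E13.5 males. From E10.5 to E11.5 only Rnaseh2c, Top2a and Cdkn1c were called among these 7 lists, the first higher and the others lower. Over all genes 2.31% were called higher and 1.97% lower in that step.

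In bulk libraries fewer cells of a kind and less RNA per cell cannot be told apart, and marker genes of other states and cells moved with some comparisons. The summed level of 9 measured meiotic entry genes was 108 to 112 RPM at E11.5, 1628 to 1631 in E13.5 females and 349.7 to 389 in males, with all 9 above 0 in every E13.5 library. That of 6 male germ cell genes was 134 to 150.2, 9.87 to 10.5 and 575 to 576 RPM in the same order. Beside the E10.5 to E11.5 falls of Pcna and Mcm4, the sum of 5 erythroid genes was 213 to 224 RPM at E10.5 and 5.98 to 14.8 at E11.5, Alas2 being at 0 in both, and that of 12 gonadal somatic genes 62.3 to 65.3 and 6.73 to 7.12. At E13.5 the erythroid sum was 22.8 to 32.6 RPM in females and 2.67 to 3.52 in males, and the gonadal somatic sum was 4.66 to 5.23 and 15.7 to 16.2. Of the 4 erythroid genes tested, 2 were called higher in females and 2 lower in males. Beside the male comparison, 5 Sertoli genes summed to 9.51 to 19.4 RPM in males and 0 to 2.56 at E11.5, with Amh at 0 in males, and 5 endothelial genes to 58.5 to 59.4 and 111 to 119.9. The endothelial sum in females was 115 to 121, with Cdh5 and Kdr at 0. Of the 2 endothelial genes tested, 1 was called lower in females and 2 in males. In the floxed libraries Pecam1 alone averaged 94.4 of a mean sum of 105.6 RPM in controls, and 65.3 of 88.2 in CKO-labelled libraries. The 5 pre-granulosa genes summed to 4.27 to 4.71 RPM at E11.5, 12.1 to 17.3 in females and 8.02 to 14.8 in males, the defining marker Foxl2 being at 0 at E11.5 and in males. The 5 measured macrophage genes summed to 0.854 to 2.02 RPM at E11.5, 0.209 to 0.822 in females and 0.352 to 1.34 in males, with C1qa at 0 in every library of both tables. The 6 mesonephric epithelial genes summed to 29.6 to 32.5 RPM at E11.5, 29.6 to 32.2 in females and 6.35 to 7.04 in males. In the floxed table the gonadal somatic sum was 12.9 to 74.0 RPM in controls and 10.0 to 267 in CKO-labelled libraries, the highest being CKO-labelled library 4, and no member was called without that library or without it and control 1. The pre-granulosa sum was 1.18 to 8.75 and 7.15 to 44.7, and the macrophage sum 0 to 2.83 and 0.199 to 3.72. The part of these cells in the other results was not tested.

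Of the 47 members, 18 share exon bases with another annotated gene, 15 of them with a gene on the opposite strand. Of these, Orc2, Orc4, Orc6, Mcm7, Cdc45, Gins2, Rfc2, Rfc4, Rfc5, Lig1, Fen1, Tk1 and Chaf1a overlap coding genes. Pole and Fen1 overlap antisense transcripts, and Orc1 overlaps a processed transcript. Whether counting used the strand is not given in the sources used here, so reads of these genes and their partners may be mixed. On their own strand, Rpa1 shares exon bases with a microRNA gene, Pole2 with a coding gene and Orc5 with a pseudogene.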

How the data were processed

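The 16 PGC libraries were made by 3′ RNA sequencing. The submitters' processing notes name cutadapt 1.3, TopHat 1.4.1, Cufflinks 2.2.0 and the mm10 build. The values deposited by the authors are RPM per gene, with the floxed and wild-type libraries in separate tables. Between 99.67% and 99.8% of positive values in a library were whole multiples of a step, within 0.05 reads, so depth was read from the step, but some genes hold fractions and the values were analysed as RPM. No member had a fractional value. The wild-type table also lists ERCC spike-in RNAs, at 11005.6 to 19252.1 RPM beside the gene total, which were left out. The floor of 3 reads was 0.596 to 2.02 RPM.

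Each table was fitted separately with limma 3.58.1 in R 4.3.3 (lmFit, eBayes with a mean-variance trend) on log2(RPM + 1), which understates changes of low genes, without a replicate block. Genes needed 5 RPM in 4 floxed or 2 wild-type libraries, which kept 9384 and 10749. The 4 wild-type groups shared 1 fit. Values in every library are given, in each role, for the 3 called members with the smallest p in each comparison, or the member with the smallest p where none was called, and for a few others. Of each further pathway list, up to 3 called genes with the smallest p in a comparison were named. The members and lists were chosen with earlier results of these data known. 1 listed marker gene was left out and is not reported here. Alternatives covered the pseudocount, filter, scaling, variance trend, groups in the fit, a replicate block, voom and each library left out. The code was tested on simulated data. Gene positions and promoters are from RefSeq (GRCm38.p6), and overlaps between exons from GENCODE.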

Additional observations from a re-analysis of the deposited data

Results flagged for a closer look

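Single control libraries stood apart from the other 3 for 3 members, by a test of the gap between the most extreme library and its neighbour. Orc2 was listed at 61.5 RPM in control library 1 against 72.4 to 74.0 in the others. Fen1 was listed at 110.1 RPM in control library 1 against 139.9 to 144 in the others. Mcm7 was listed at 691.3 RPM in control library 4 against 668 in each of the others, where the close agreement of those 3 makes the gap stand out. These were 3 of 94 groups of 4 libraries examined, and chance alone would give about 1 in 20.

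The change from E11.5 to E13.5 differed between the sexes for 21 members, by limma's test of females against males over all genes (adjusted p under 0.05). The difference, female minus male on the log2 scale, was positive for 17. It was 1.11 for Tk1, 1.02 for Rrm2, 0.80 for Rfc3, 0.75 for Orc1, 0.73 for Prim1, 0.72 for Lig1, 0.61 for Prim2 and 0.53 for Cdt1. It was 0.50 for Pole, 0.49 for Pola1, 0.47 for Mcm4, 0.44 for Gmnn, 0.42 for Mcm3, 0.41 for Rfc4 and for Gins1, 0.33 for Rrm1 and 0.26 for Rpa2. It was negative for 4, at -0.75 for Gins4, -0.58 for Mcm10, -0.37 for Orc3 and -0.35 for Orc4. Since E11.5 is shared, this is the plain difference between the E13.5 sexes. Tk1 and Rfc3 fell in males with values of 0.08 and 0.01 in females, and Gins4 fell in females with a value of 0.03 in males.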

How the results depend on the processing

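With 2 libraries per wild-type group the spread is poorly known, and the calls lean on sharing it across genes and groups. Without the mean-variance trend the members called dropped to 0 from E10.5 to E11.5 (27 genes), 12 in females, 11 in males and 10 between the sexes. From E10.5 to E11.5 no member was called with no filter on low values (80 genes) or with only the compared groups in the fit (79 genes), and 4 were called by voom, which was added after the data were seen. The cause was not tested. A filter at 20 RPM left 139 called genes in the floxed comparison.

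Leaving out each library in turn gave 0 to 3 members from E10.5 to E11.5 (105 to 486 genes), 16 to 26 in females, 14 to 23 in males and 13 to 25 between the sexes, and 137 to 204 genes in the floxed comparison. The lowest counts came without E10.5 library 1, E13.5 female library 1 (16 and 13), E13.5 male library 2 (14) and CKO-labelled library 2 (137). Without E10.5 library 2 the first comparison gave 0 members and 167 genes, and without E11.5 library 2 it gave 1 member. In the floxed comparison no member was called under any of the 18 alternatives. No called member was called in the opposite direction under any alternative.

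The replicate numbers were not taken to pair the libraries, since the labels tie nothing to them and 1 of the 4 floxed pairs did not deviate together. In the floxed table, deviations from the group means correlated at 0.241, 0.0198, 0.252 and 0.182 for the same number, and each control other than control 2, which correlated best with CKO-labelled library 3 (0.149), correlated best with its own number. This is a hint from the data, not the design. In the wild-type table the values for the same number were -0.0305 to 0.0331. With a replicate block the members called were 0, 2, 26, 23 and 21, the last as 18 higher and 3 lower, and the genes called in the floxed comparison 314 against 228.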
